A study of Mus musculus with 12 samples.

Results

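The cytosolic ribosomal protein genes were followed across 12 mouse mammary tumours profiled by single-cell RNA sequencing. The set was taken by name: every row whose symbol starts with Rpl or Rps and a digit, together with Rplp0, Rplp1, Rplp2 and Rpsa, without the S6 kinases (Rps6k) and without symbols marked as processed copies. It holds 88 of the 24421 gene rows, 53 starting with Rpl and 35 starting with Rps. The tumours came from untreated FVBN mice carrying mMTV-Cre and the HER2 Crainbow construct, in which Cre recombination in mammary cells switches on 1 of several forms of the HER2 receptor. Tumours of nulliparous mice were labelled p95 HER2, an amino-terminally truncated form (5 tumours, at 20, 17, 15, 16 and 17 weeks, all metaplastic), or d16 HER2, a splice form lacking an exon (3 tumours, at 21, 17 and 16 weeks, the first solid, the others metaplastic). The 4 tumours of multiparous mice (17, 17, 16 and 16 weeks, numbers 1 and 3 mixed, numbers 2 and 4 solid) carry no label for the HER2 form, so parity cannot be separated from an unknown genotype. Cells were captured on a ddSEQ instrument and converted with a SureCell 3′ kit, and the libraries of each tumour had been merged before deposit. The labels do not say which tumours came from different animals, and 2 pairs of tumours share a number in their titles (p95 tumour 2 with d16 tumour 2, and p95 tumour 4 with d16 tumour 3), so the tests measure only the spread between these samples.

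Ribosomal proteins form the protein shell of the small (Rps) and large (Rpl) subunits around ribosomal RNA, and each ribosome carries about 1 copy of most of them. Their mRNAs belong to the terminal oligopyrimidine class: transcription starts at a cytosine inside a run of C and T bases, and the mTORC1 and LARP1 pathway sets how much of each mRNA is translated. Rplp0, Rplp1 and Rplp2 build the stalk that recruits elongation factors, Rpsa is also known as the laminin receptor, and Rpl5 and Rpl11 bind and inhibit Mdm2 when ribosome assembly fails.

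The starts of 8 members are shown because these members carry the results: the most abundant ones (Rps12, Rpl13a, Rps9), the short and variable Rpl38 and Rps28, the long Rpl4 and Rplp0, and Rps27, which was almost not counted. Each line gives 60 bases from RefSeq (build GRCm38.p6), 30 before and 30 after the annotated start, on the gene's own strand, with the longest run of C and T in capitals.
Rps12, chr10:23787180-23787239, minus strand: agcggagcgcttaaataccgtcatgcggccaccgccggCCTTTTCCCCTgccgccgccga
Rpl13a, chr7:45128716-45128775, minus strand: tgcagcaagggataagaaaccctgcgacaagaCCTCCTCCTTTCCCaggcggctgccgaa
Rps9, chr7:3704011-3704070, plus strand: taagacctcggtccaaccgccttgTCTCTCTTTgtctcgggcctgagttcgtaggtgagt
Rpl38, chr11:114668550-114668609, plus strand: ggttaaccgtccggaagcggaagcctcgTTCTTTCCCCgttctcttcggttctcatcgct
Rps28, chr17:33824533-33824592, minus strand: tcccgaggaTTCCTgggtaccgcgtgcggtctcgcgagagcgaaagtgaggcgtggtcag
Rpl4, chr9:64173357-64173416, plus strand: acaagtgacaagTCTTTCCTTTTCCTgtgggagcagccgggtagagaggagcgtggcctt
Rplp0, chr5:115559437-115559496, plus strand: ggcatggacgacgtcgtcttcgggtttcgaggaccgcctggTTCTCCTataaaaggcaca
Rps27, chr3:90213619-90213678, minus strand: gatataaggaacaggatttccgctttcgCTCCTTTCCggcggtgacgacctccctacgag

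The run is long in Rps12, Rpl13a and Rpl4 and short in Rps28. It spans the annotated start in Rps9, Rpl38 and Rps27. In Rps12, Rpl13a and Rplp0 it begins after the start, at base 9, 3 and 12. In Rpl4 and Rps28 it begins at base -18 and -21 and ends before the start. The capitals therefore do not mark the annotated start in every gene. Across the 79 RefSeq promoter rows of the 67 members that matched, 46.8% held a run of at least 8 pyrimidines on the gene's strand in this window, against 22.9% of all 32851 promoter rows. The median longest run was 7 bases in the members and 5 bases in all rows. Over the full 300 bases (250 before and 50 after the start, both strands), CTTCCG was found in 59.5% of member rows and 16.9% of all rows. AAGATGGC was found in 10.1% against 2.75%, and TATAAA in 8.86% against 13.6%. These matches describe the letters only.

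Ribosomal protein genes took 8.49% of the 24689207 UMIs in the 7366 cells kept, and 25 of the 88 were among the 100 genes with the highest mean level. Levels below are CPM, a gene's UMIs over all UMIs of the kept cells of a tumour, scaled to 1000000. A 3′ UMI counts transcript ends, so levels of different genes were not divided by length. In whole tumours, fewer cells of a type and less RNA per cell cannot be told apart. The mean level was at least 1000 CPM for 38 members, at least 50 CPM for 78, between 10 and 50 CPM for 2 and under 10 CPM for 8.

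The stalk gene Rplp1 (chr9:61913284-61914542, minus strand, GRCm38) was the most abundant member, at 2717 CPM in the lowest tumour, 3403 at the median and 4187 in the highest. Rps12 had 1878, 3102 and 4802 CPM, and Rps3, whose protein also acts in DNA repair, had 2052, 2794 and 3850. Rpl13a had 1859, 2449 and 3377 CPM, Rps14 1795, 2230 and 3296, Rps9 1890, 2246 and 3240, and Rpl32 1526, 1942 and 2867. The ranges of these genes overlapped across tumours. The 8 most abundant members held 24.8% of all member UMIs. The other stalk genes lay lower, with means of 1869 ± 447 CPM for Rplp2 and 1766 ± 443 for Rplp0 (SD, n = 12), and Rpsa had 1765 ± 412.

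**Figure D1:**
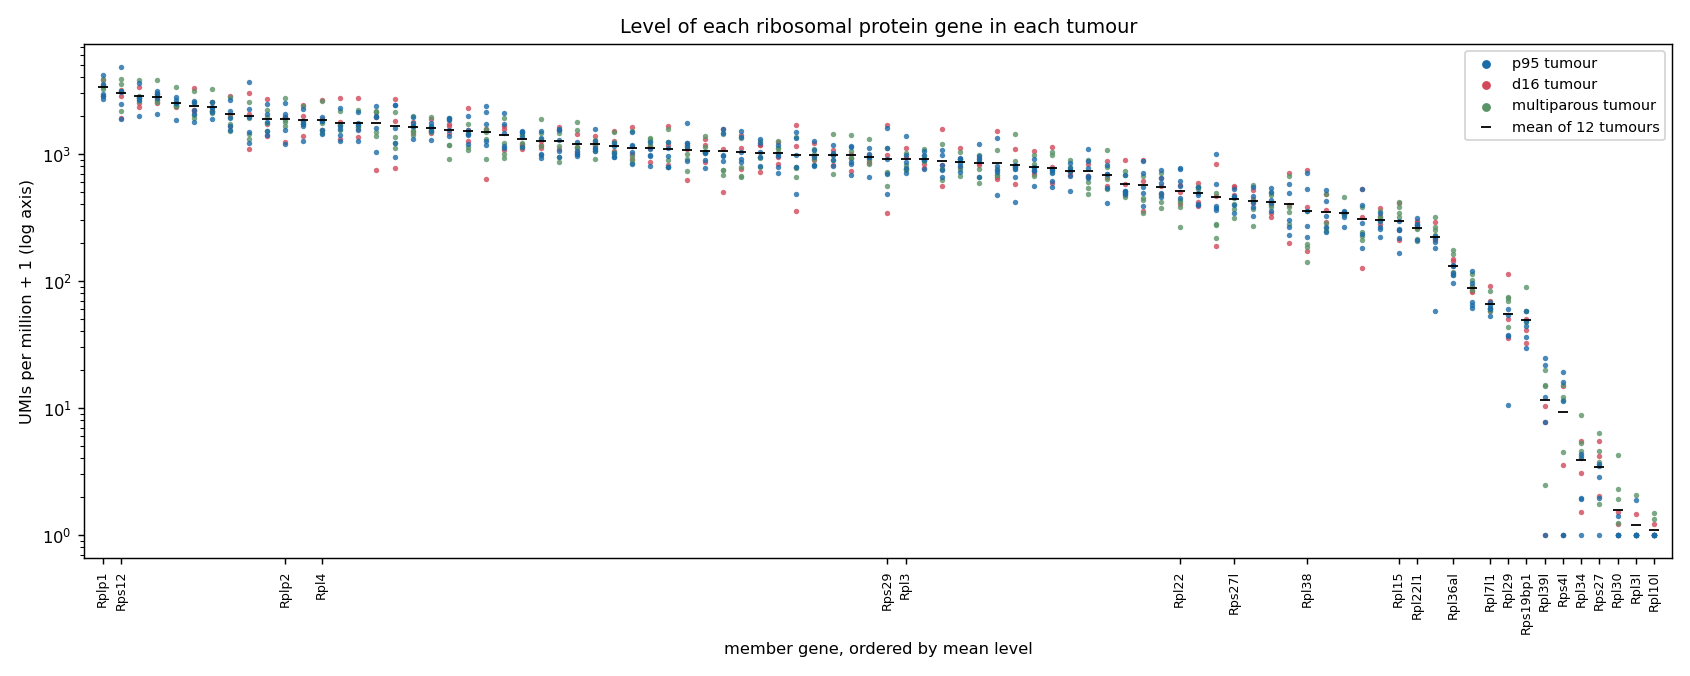
Level of each member in each tumour, in CPM plus 1 on a log axis; points are tumours coloured by group and dashes are means over the 12 tumours; the axis names some of the members. Most members lie between 100 and 4802 CPM with the 3 groups mixed, and 8 members lie under 10 CPM; Rpl26 and Rps27rt, with 0 UMIs, are not drawn.

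Some genes of universal ribosome subunits were nearly or fully uncounted. Rpl26 (chr11:68901583-68906989), whose protein binds the p53 mRNA, had 0 UMIs in all 12 tumours, which allows up to 3 UMIs in each. Rpl30 had 13 UMIs in 7 tumours, Rps27 had 58 in 11 tumours and Rpl34 had 74 in 11 tumours. In GENCODE M21, 64.5% of the 50-base words in the last 300 bases of Rpl26 transcripts also occur in other genes, as do 80.1% for Rpl30, 54.2% for Rpl34 and 100% for Rps27. The same holds for well counted genes: 44 members share at least 50% of these words, and 18 of them had means of at least 1000 CPM. Whether reads with several matches were dropped or split was not given in the sources used here, and its part in these low counts was not tested.

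The tissue-restricted paralogues Rpl3l and Rpl10l were far below their parents. Rpl3l, the form of heart and skeletal muscle, had a mean of 0.201 CPM against 909 for Rpl3. Rpl10l, the testis form, had 0.0876 against 814 for Rpl10. Rps27rt, a retrogene copy, had 0 UMIs, but its parent Rps27 had only 2.43 CPM, so the copy cannot be placed far below its parent. Of the 50-base end words of Rps27rt, 88.4% also occur in other genes. Paralogues that many tissues use were well counted, with means of 261 CPM for Rpl22l1 against 511 for Rpl22, 131 for Rpl36al against 428 for Rpl36a, and 64.7 for Rpl7l1 against 1087 for Rpl7. The p53 target Rps27l stood at 440 CPM against 2.43 for its parent Rps27. Rps19bp1, which the naming rule takes although its protein is a binding partner of Rps19 and of SIRT1, had 48.5 ± 15.9 CPM (SD, n = 12).

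A pair of the low members was found almost only in stromal cells. Rpl39l (chr16:10170226-10174911, plus strand), a paralogue best known from testis, had 290 UMIs in all, of which 271 were in fibroblast-like cells, 3 in epithelial-like and 1 in macrophage-like cells. In the 10 tumours with at least 20 fibroblast-like cells its level there was 14.5 CPM at the lowest, 52.6 at the median and 76.9 at the highest, and it was above 0 in each. In epithelial-like cells it never exceeded 1.04 CPM, against a mean of 453 CPM for the parent Rpl39 in whole tumours. None of its 50-base end words occurs in another gene (0% shared). Rps4l (chr6:148354656-148355598, plus strand), annotated as a transcribed processed pseudogene, had 246 UMIs, of which 204 were in fibroblast-like and 19 in epithelial-like cells. It lies inside Tmtc1 on the opposite strand, and since the strand setting of the counting was not given, reads of these 2 genes cannot be told apart. Neither Rpl39l nor Rps4l was counted often enough to enter the tests between cell classes.

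By tumour, the share of UMIs from ribosomal protein genes ran from 6.93% to 10.9%. The 5 p95 tumours had 8.21, 9.46, 9.96, 6.93 and 8.70%, the 3 d16 tumours had 8.31, 9.98 and 8.18%, and the 4 multiparous tumours had 8.11, 8.17, 7.49 and 10.9%. The 95% Wilson intervals of these shares are at most 0.332 points wide (counting error only), so the range over tumours is wider than the counting error. The groups overlapped throughout: multiparous tumours averaged 8.68 ± 1.54% (SD, n = 4) and nulliparous tumours 8.72 ± 1.04% (n = 8), a difference of -0.0399 points. Within nulliparous tumours, d16 averaged 8.82% (8.18 to 9.98%, n = 3) and p95 8.65% (6.93 to 9.96%, n = 5). Solid tumours averaged 9.14 ± 1.56% (n = 3) and metaplastic tumours 8.77 ± 1.11% (n = 7). None of these 3 differences kept its sign when 1 tumour was left out. The difference by parity then ran from -0.795 to 0.356 points and turned in 6 of 12 fits, those without multiparous tumours 1, 2 or 3, p95 tumours 2 or 3, or d16 tumour 2. That by HER2 form ran from -0.404 to 0.502 and turned without d16 tumour 2 or p95 tumour 4. That by phenotype ran from -0.532 to 0.854 and turned without multiparous tumour 4. The highest tumour, multiparous tumour 4, also had 6418 CPM of the ribosomal RNA precursor Rn45s, against 134 to 797 CPM in 9 tumours, 2984 in p95 tumour 1 and 5373 in d16 tumour 2. With Rn45s left out of the total, the share was 11.01% in multiparous tumour 4 and 10.03% in d16 tumour 2.

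Shares differed more between cell classes than between tumour groups. Classes were rebuilt by clustering the cells without the ribosomal protein genes and named from marker genes, so that their shares are not set by the clustering. T or NK-like cells were highest, with 10.9% at the lowest tumour, 14.4% at the median and 18.6% at the highest (6 tumours with at least 20 such cells). Epithelial-like cells had 7.34, 9.79 and 12.3% (12 tumours), fibroblast-like cells 5.49, 6.54 and 8.69% (10 tumours) and macrophage-like cells 4.35, 6.13 and 7.53% (12 tumours). Neutrophil-like cells were lowest, with 1.88, 2.86 and 5.84% (6 tumours). Dendritic-like cells averaged 8.62 ± 1.48% (SD, n = 4), and pericyte-like cells had 5.96 and 7.44% in 2 tumours.

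**Figure D2:**
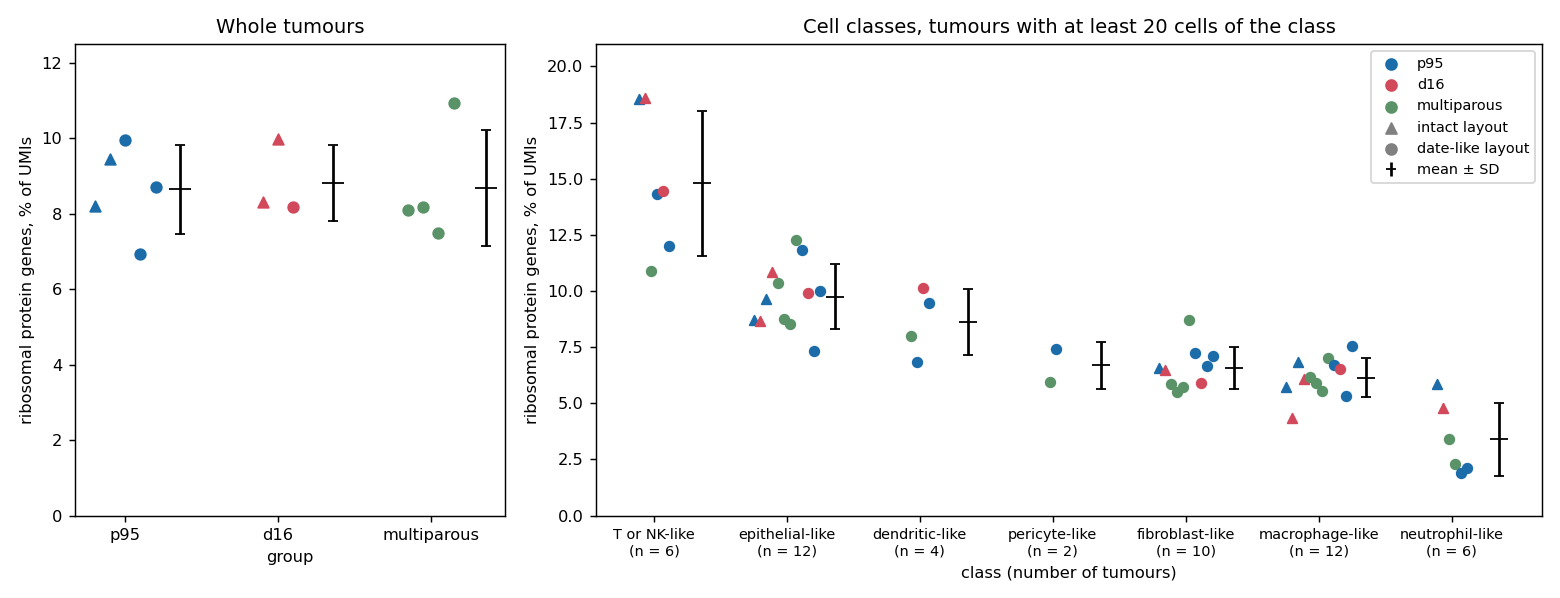
Share of UMIs from ribosomal protein genes, in percent, by tumour group (left) and by cell class (right); points are tumours, triangles mark tables with intact gene names and circles tables with date-like names, and bars are mean ± SD. The 3 tumour groups overlap, while classes run from 1.88% in neutrophil-like cells of 1 tumour to 18.6% in T or NK-like cells.

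Inside tumours the order was steady. Epithelial-like cells were above macrophage-like cells in 12 of 12 tumours, by 1.33 to 2.00 times (median 1.53), and above fibroblast-like cells in 10 of 10. T or NK-like cells were above epithelial-like and above macrophage-like cells in 6 of 6 tumours, and macrophage-like cells were above neutrophil-like cells in 6 of 6. Fibroblast-like and macrophage-like cells had no fixed order, with macrophage-like cells higher in 5 of 10 tumours. Multiparous and nulliparous tumours overlapped: in epithelial-like cells multiparous tumours had 9.99 ± 1.72% (SD, n = 4) and nulliparous tumours 9.62 ± 1.39% (n = 8), and in macrophage-like cells these were 6.16 ± 0.620% and 6.13 ± 0.996%. The median depth differed between classes, from 654 UMIs per neutrophil-like cell and 882 per T or NK-like cell to 1941 per macrophage-like, 2142 per epithelial-like and 4055 per fibroblast-like cell; its part in the shares was not tested.

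Clusters within a class differed as well. The T or NK-like cells fell into a cluster led by cytotoxic genes (Cd8a, Nkg7, Xcl1) with 18.4% and a cluster led by regulatory T cell genes (Foxp3, Ctla4, Il2ra) with 10.8%, pooled over tumours. In d16 tumour 3, the tumour with at least 20 cells of both, they had 19.6 and 10.8%. Tumours mixed these clusters differently, with 109 cytotoxic and 17 regulatory cells in p95 tumour 2 and 56 and 72 in d16 tumour 3. Among epithelial-like cells, the keratin-rich cluster led by Krt5, Krt14 and Krt17 had 11.4% and the cluster led by casein genes had 7.70%, pooled over tumours. In d16 tumour 3, the only tumour with at least 20 cells of both, they had 9.96 and 9.02%. Milk protein genes took 18.6% of the casein cluster's UMIs, and with them left out of the total its share was 9.46%. The keratin-rich cluster was not the highest. A cluster led by Slc6a15 and Krt23, with 211 of its 215 cells from multiparous tumour 4, had a pooled share of 12.2%. A cluster led by Hspb1 and Hspa1b (607 cells, median of 660 UMIs per cell) had 11.5%. Also pooled over tumours, the macrophage-like cluster led by Cd163, Lyve1 and Folr2 had 4.50%, against 6.50% in the larger macrophage-like cluster. The former held 103 cells and at most 18 in any tumour, below the minimum of 20, so no share per tumour was taken. Its median depth was 1439 UMIs per cell, against 2016 in the larger cluster. Among fibroblast-like cells, again pooled, the cluster led by Dpt and Pi16 had 7.89%, against 5.85 and 5.99% in the other 2.

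Each class was then tested gene by gene against macrophage-like cells of the same tumours, the class found in every tumour beside epithelial-like cells. In T or NK-like cells, 65 of the 76 members tested rose and 1 fell (6 tumours). Over all 1670 genes tested, 29.9% rose and 30.7% fell. The median log2 fold change was 0.90 for the members and 0.09 for all genes tested. Both subunits moved together, with 39 of 45 large-subunit and 26 of 31 small-subunit genes higher. Of the other translation genes on a list (elongation and initiation factors, Tpt1, Naca and others), 16 of 17 tested rose and 1 fell.

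Rps15a (chr7:118104372-118116188, minus strand), a core protein of the small subunit, rose most. Its level in T or NK-like cells was 1219 CPM at the lowest tumour, 2080 at the median and 3165 at the highest, against 369, 580 and 771 in macrophage-like cells of these 6 tumours, with no overlap. Its log2 fold change was 1.60 ± 0.21 (SE, adjusted p = 4e-06, higher in 6 of 6 tumours; such counts compare TMM-scaled CPM). Rps24 (chr14:24487125-24496959, plus strand), which is mutated in some cases of Diamond-Blackfan anaemia, had 2586, 4350 and 5223 CPM against 836, 1330 and 1379, a log2 change of 1.47 ± 0.19 (adjusted p = 3.52e-06). Rpl5, the Mdm2-binding large-subunit protein, had 792, 1192 and 1364 CPM against 283, 370 and 399, a log2 change of 1.48 ± 0.21. These 3 genes were separated by tumour as well as by mean. Other large changes were those of Rpl27 (1.51), Rpl17 (1.39), Rpl38 (1.38), Rps6 (1.35), the target of the S6 kinases, Rpl13a (1.33), Rpl4 (1.30) and Rpl23a (1.23). Rpl11 rose by 0.87 and Rpl23, another Mdm2-binding protein, by 0.76. Rpl22 and its paralogue Rpl22l1 rose together, by 0.97 and 1.02. Rps27l fell, by 0.93 ± 0.30 on the log2 scale (adjusted p = 0.0133, higher in 1 of 6 tumours). Its level was 68.0 CPM at the lowest, 217 at the median and 335 at the highest in T or NK-like cells against 258, 326 and 370 in macrophage-like cells, and the call ended without p95 tumour 2 (adjusted p = 0.0623). The call also ended in the tumours whose tables have date-like gene names alone (log2 change -0.53, adjusted p = 0.164). T or NK-like cells carried 5634 to 7772 CPM of summed T or NK markers, 684 to 1447 CPM of macrophage markers and 413 to 5262 CPM of luminal epithelial markers, the last highest in p95 tumour 2.

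In epithelial-like cells, the lineage in which the Cre driver acts, 53 of 79 members rose and 1 fell against macrophage-like cells (12 tumours), where 32.9% of all 4657 genes tested rose and 25.9% fell. The median log2 fold change was 0.52 for the members and 0.16 for all genes tested. Under another scaling (RLE) these medians were 0.68 and 0.35. Large-subunit genes rose in 35 of 47 cases and small-subunit genes in 18 of 32, with 1 falling. Ribosome biogenesis genes moved too, with 13 of 21 tested higher and none lower. Of the 77 mitochondrial ribosomal protein genes 44 were tested. Among these 18 rose and 0 fell, beside the 32.9% and 25.9% of all genes tested. A list of RNA quality and stress genes (Rn45s, Malat1, Neat1, Fos, Jun, Hspa1a and 4 others) moved as well, with 6 of 10 higher, 1 lower and a median log2 change of 0.80; its part was not tested.

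Rpl36 (chr17:56613416-56614243, plus strand) rose most, from 195, 464 and 640 CPM (lowest, median and highest) in macrophage-like cells to 587, 1017 and 1829 in epithelial-like cells. The ranges overlap, but epithelial-like cells were higher in 12 of 12 tumours, with a log2 fold change of 0.99 ± 0.17 (adjusted p = 3.8e-05). Rpsa (chr9:120127689-120132369, plus strand) rose by 0.90 ± 0.16, from 774, 893 and 1364 CPM to 1319, 1975 and 2872. Rps26 rose by 0.87, Rpl23a by 0.83, Rpl24 by 0.82 and Rplp0 by 0.80, each in 12 of 12 tumours. Rps19bp1 rose by 0.78 (adjusted p = 0.0257, higher in 10 of 12 tumours with TMM scaling and in 11 of 12 in plain CPM), and its call ended without d16 tumour 2 (adjusted p = 0.0524). It also ended in the tumours whose tables have date-like gene names alone (log2 change 0.55, adjusted p = 0.166). Rps27l, which fell in T or NK-like cells, rose here by 0.59 ± 0.15, with 432, 518 and 663 CPM and no overlap with macrophage-like cells. Rps29 (chr12:69157722-69159186, minus strand), a short zinc-binding protein of the small subunit, fell by 0.79 ± 0.16 on the log2 scale (adjusted p = 0.000187, higher in 1 of 12 tumours). It had 332, 741 and 1722 CPM in epithelial-like cells and 306, 1346 and 2101 in macrophage-like cells, so the ranges overlap widely and the difference shows within tumours. Epithelial-like cells carried 33.2 to 386 CPM of summed macrophage markers, and macrophage-like cells 84.8 to 5685 CPM of luminal epithelial markers, whose part was not tested.

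**Figure D3:**
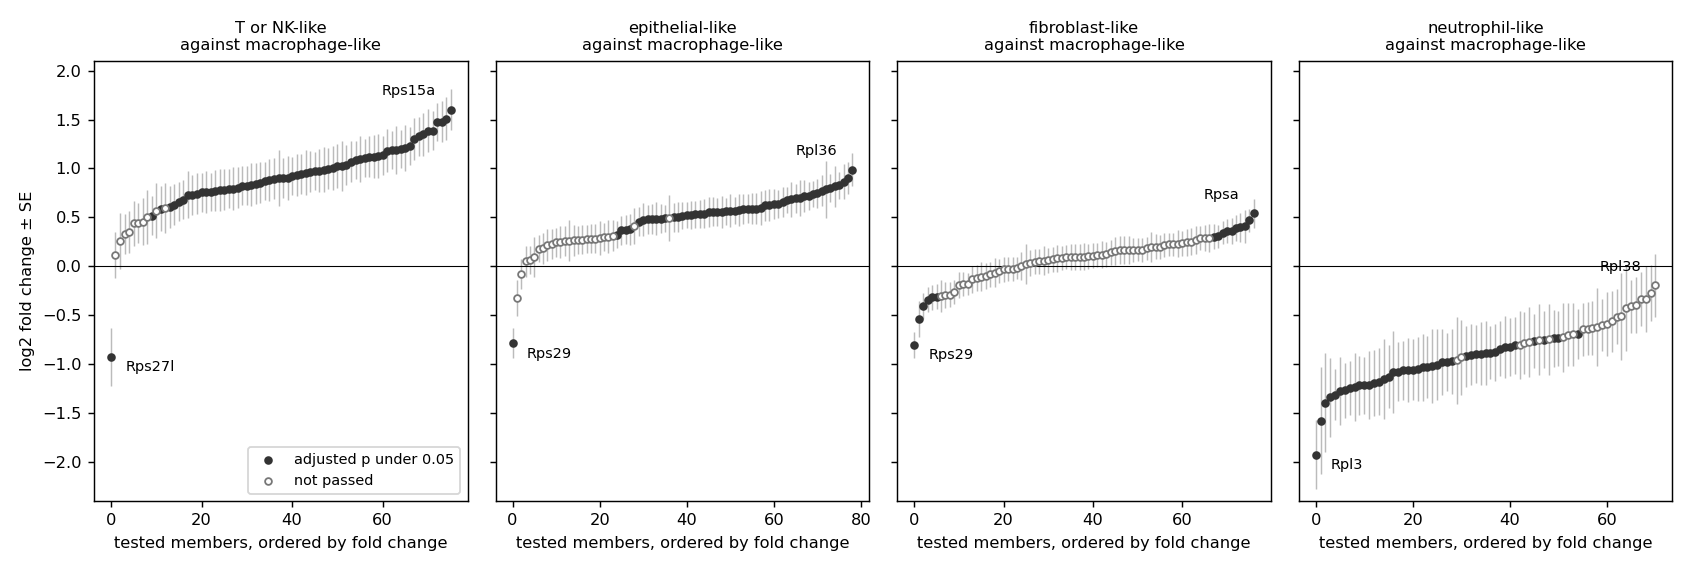
Log2 fold change against macrophage-like cells of the same tumours for every member tested, ordered within each panel; bars are standard errors and filled points passed at an adjusted p under 0.05. Nearly all members lie above 0 in T or NK-like and epithelial-like cells, all 71 tested lie below 0 in neutrophil-like cells, and fibroblast-like cells straddle 0.

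Fibroblast-like cells stood close to macrophage-like cells. Of 77 members 10 rose and 6 fell (10 tumours), where 33.8% of all 4062 genes tested rose and 29.9% fell, and the medians were 0.10 for the members and 0.06 for all genes. The split depends on the scaling: with library sizes taken from genes other than the members, 2 rose and 11 fell. Rpsa (0.54 ± 0.14, adjusted p = 0.00331), Rps2 (0.47 ± 0.12) and Rps29 kept their calls in all settings tried, and each of the other 13 lost it in at least 1. Rps29 had 563, 720 and 1051 CPM at the lowest, median and highest tumour and fell by 0.81 ± 0.14 on the log2 scale (adjusted p = 5.06e-05, higher in 0 of 10 tumours). Rps29 therefore was lower than in macrophage-like cells in both epithelial-like and fibroblast-like cells, while in T or NK-like cells its change was 0.33 ± 0.20 (adjusted p = 0.167). Of the ribosome biogenesis list, 15 of 21 tested rose and 1 fell in fibroblast-like cells.

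Neutrophil-like cells, the short-lived granulocytes, were low in every member tested. All 71 tested members had fold changes below 0, and 45 fell (6 tumours), where 25.8% of all 1064 genes tested fell and 22.8% rose. The median log2 fold change was -0.89 for the members and -0.13 for all genes. Of the RNA quality and stress list, 4 of 10 rose and 0 fell, with a median of 0.73; its part was not tested. The count fell to 24 without multiparous tumour 3, to 20 without p95 tumour 3 and to 23 without p95 tumour 5. Rpl3 (chr15:80077791-80091868, minus strand), which reaches towards the peptidyl transferase centre, had 39.0, 128 and 332 CPM in neutrophil-like cells against 528, 667 and 750 in macrophage-like cells of the same 6 tumours, with no overlap. Its neutrophil-like levels rested on 36 UMIs in all. These cells held 23511 to 57306 UMIs per tumour, so the lowest levels are near the limit of counting. Rpl3 fell by 1.93 ± 0.35 on the log2 scale (adjusted p = 0.000437, higher in 0 of 6 tumours). Rpl13 fell by 1.34, Rps29 by 1.31, Rpl4 by 1.28, Rps23 by 1.25 and Rps24 by 1.22. Rpl36a and Rps4x fell by 1.58 and 1.40. Both lost the call without p95 tumour 3 (adjusted p = 0.0708 and 0.0638) or without p95 tumour 5 (0.0732 and 0.0762). Rps4x also lost it without multiparous tumour 1 (0.0647) or multiparous tumour 3 (0.0864). Neutrophil-like cells also carried UMIs of other cells. Their summed macrophage markers were 6080 to 10300 CPM and their luminal epithelial markers 960 CPM in p95 tumour 3 to 22800 CPM in p95 tumour 2, and the latter tumour had the highest neutrophil-like share of ribosomal protein UMIs (5.84%); the part of these UMIs was not tested.

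**Figure D4:**
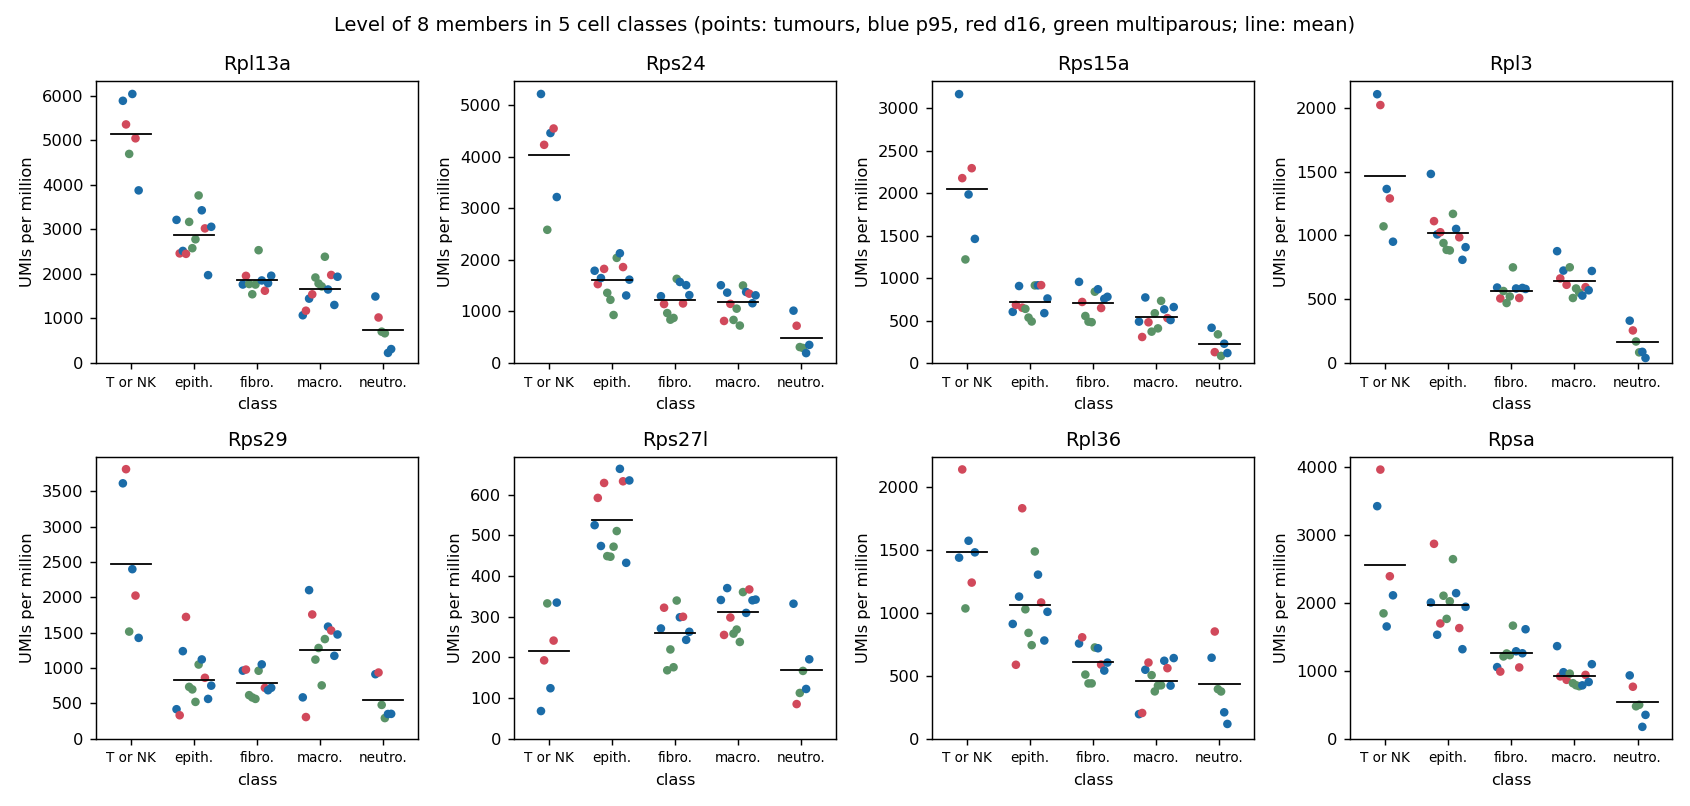
Level in CPM of 8 members in 5 cell classes; points are tumours coloured by group and lines are means. T or NK-like cells are highest for 7 of the 8 genes shown, Rps27l is highest in epithelial-like cells, and neutrophil-like cells are at or near the bottom of each panel.

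Parity left no member past the threshold. In whole tumours 0 of 81 members passed in edgeR (3 at an unadjusted p under 0.05, and 0 of 83 in DESeq2), where 0.0801% of all genes tested passed. In epithelial-like cells 0 of 79 passed (4 unadjusted, background 0%) and in macrophage-like cells 0 of 76 (4 unadjusted, background 0.0309%), and DESeq2 also called 0 in each. These backgrounds are of adjusted p. In whole tumours 856 of all 11242 genes tested had an unadjusted p under 0.05. Such genes were 462 of 9625 in epithelial-like and 287 of 3236 in macrophage-like cells. Rpl15, which joins the large subunit early in assembly, had the smallest p among the members. It had 319, 416, 378 and 344 CPM in multiparous tumours 1 to 4, against 166, 251 and 410 at the lowest, median and highest of the nulliparous tumours. Only d16 tumour 1, a solid tumour, reached the multiparous range, and the log2 fold change was 0.53 ± 0.19 (adjusted p = 0.467). In macrophage-like cells the change of Rpl15 was 0.92 ± 0.25 (adjusted p = 0.216). Rpl22, whose loss affects T cell development, had 419, 267, 383 and 436 CPM against 405, 565 and 769, a change of -0.65 ± 0.26 (adjusted p = 0.533). Rpl38, known for selective translation of Hox mRNAs, had 195, 185, 141 and 354 CPM against 171, 369 and 742, a change of -1.01 ± 0.43 (adjusted p = 0.593). The groups overlapped for all 3. The S6 kinase and mTORC1 list (0 of 16), ribosome biogenesis (0 of 31) and the p53 surveillance list (0 of 7) had no gene past the threshold for parity either.

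The form of HER2 and the tumour phenotype gave few or no calls. Between d16 and p95 tumours 0 of 81 members passed in edgeR, with 0 at an unadjusted p under 0.05, 0 in DESeq2 and a background of 0%. In epithelial-like cells 0 of 79 and in macrophage-like cells 0 of 77 passed, with 0 unadjusted and a background of 0% in each, and DESeq2 called 0. In whole tumours 483 of all 11061 genes tested had an unadjusted p under 0.05. Such genes were 512 of 9286 in epithelial-like and 97 of 3858 in macrophage-like cells. Among members, the smallest p values in whole tumours belonged to Rpl39l (-1.13 ± 0.66), Rps6 (-0.41 ± 0.26) and Rpl22 (-0.46 ± 0.32), each with an adjusted p of 0.932. Between 3 solid and 7 metaplastic tumours 0 of 81 passed in edgeR (background 0%). An unadjusted p under 0.05 was seen for 8 members and for 2229 of all 11394 genes tested. The metaplastic tumours are all nulliparous and the solid ones include multiparous tumours 2 and 4, so this contrast is not independent of that by parity. DESeq2 called 3 of 81, where it called 4.62% of all genes with an adjusted p: Rps3a1 and Rpl6 higher and Rpl22 lower in solid tumours. Rpl22 had 405, 267 and 436 CPM in the solid tumours (d16 1, multiparous 2 and 4) and 450, 567 and 769 at the lowest, median and highest of the metaplastic ones, without overlap. Its log2 fold change was -0.86 ± 0.27 (edgeR adjusted p = 0.138, DESeq2 0.0306). Rpl6 had 983 to 1134 CPM in solid against 544 to 782 in metaplastic tumours, a change of 0.51 ± 0.20 (edgeR adjusted p = 0.198, DESeq2 0.0313). Rps20 (-0.95 ± 0.35), Rpl15 (0.61 ± 0.21) and Rpl29 (0.82 ± 0.31) followed at adjusted p of 0.183, 0.162 and 0.188.

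The deposited tables have 2 layouts. Those of p95 tumours 1 and 2 and d16 tumours 1 and 2 hold their gene names unaltered (intact layout), and each of the other 8 has 27 names turned into dates (date-like layout). Among nulliparous tumours, 4 of each layout, 0 members rose and 1 of 81 fell in the intact layout in edgeR, where 0.437% of all genes tested rose and 1.7% fell. The member was Rps4l, with 0, 0, 0 and 2.58 CPM in p95 1, d16 1, p95 2 and d16 2, and 18.3, 10.3, 14.9 and 13.9 CPM in p95 3, 4, 5 and d16 3 (adjusted p = 0.0391). A count of 0 allows up to 28.6 CPM in p95 tumour 1, 13.5 in d16 tumour 1 and 2.80 in p95 tumour 2, so the level of the other layout lay under or near the limit in the first 2 tumours. No member passed in 7 of the 8 fits that left out 1 tumour (all but that without p95 tumour 4). Both shallow tumours also held fewer than 20 fibroblast-like cells, the class that carried most Rps4l UMIs. Within fibroblast-like cells its level was 0 CPM in p95 tumour 2 and 17.3 in d16 tumour 2, against 54.3, 36.8, 25.7 and 34.1 in p95 3, d16 3, p95 4 and p95 5. The share of UMIs from the members was 8.99 ± 0.871% in the intact and 8.44 ± 1.26% in the date-like layout (SD, n = 4 each), with overlap. Within classes the 2 layouts stood apart in small numbers of tumours, which were not tested. T or NK-like cells had 18.6 and 18.6% in p95 and d16 tumour 2 (intact) against 14.3, 14.5 and 12.0% in p95 3, d16 3 and p95 5. In the cytotoxic cluster alone the values were 19.4 and 18.9% in p95 and d16 tumour 2 and 19.6% in d16 tumour 3, so they did not stand apart there. Neutrophil-like cells had 5.84 and 4.80% in p95 and d16 tumour 2 against 1.88 and 2.14% in p95 3 and p95 5, while their summed luminal epithelial markers were 22800 and 5827 CPM against 960 and 2926.

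Individual members varied between tumours in a shared way. Among the steadiest were Rps16 and Rpl24, with SDs over the 12 tumours of 0.155 and 0.174 on the log2(CPM + 1) scale. Of the 78 members with a mean of at least 50 CPM, Rpl29 varied most (0.855), at a mean of only 54.1 CPM and with a coding length of 480 nt. Its lowest level, in p95 tumour 1, rested on 1 UMI. Rpl38 (0.799), Rpl39 (0.724), Rps29 (0.680) and Rpl37 (0.679) came next, with coding lengths of 153 to 291 nt. Rpl38 had 219, 704, 531, 268 and 354 CPM in the p95 tumours (numbers 1 to 5), and 171, 742 and 384 CPM in the d16 tumours (numbers 1 to 3). Rps28 followed the same tumours, with 181, 527, 395, 234 and 284 CPM and 126, 527 and 315. The long Rpl4 had 1964, 1807, 1801, 1437 and 1534 CPM in the p95 and 2678, 1869 and 1553 in the d16 tumours. Rplp0, also long, had 2307, 1409, 1672, 1270 and 1565 CPM and 2777, 1786 and 1317. Among the nulliparous tumours, d16 tumour 1 and p95 tumour 1 were thus the lowest for the short pair and the highest for the long pair. In the other 6, Rpl4 did not go against Rpl38: both were highest in d16 tumour 2 and lowest in p95 tumour 4.

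This was summarised as the UMIs of the 27 members with the shortest coding length (75 to 405 nt) over those of the 26 longest (582 to 1257 nt), out of 77 members with a mean of at least 50 CPM. The ratio and the classes of length were chosen after the values were seen and are given without a test. It was 0.488 in d16 tumour 1, 0.585 in p95 tumour 1, 0.668, 0.736, 0.843 and 0.881 in multiparous tumours 2, 3, 4 and 1, 0.945 and 0.955 in p95 tumours 5 and 4, 1.08 in d16 tumour 3, 1.12 in p95 tumour 2, 1.15 in d16 tumour 2 and 1.26 in p95 tumour 3. Epithelial-like cells alone ran from 0.496 to 1.27 and macrophage-like cells alone from 0.420 to 1.27, with d16 tumour 1 lowest and p95 tumour 3 highest in both. Across members, the deviation from a gene's mean correlated with coding length at a Spearman rho of 0.71 in d16 tumour 1 and -0.84 in d16 tumour 3. Across 1918 other genes with coding lengths up to 1257 nt, that of the longest member, it stayed between -0.16 and 0.14 in the 12 tumours. Those genes were not matched to the members in length or level. Genes of a tumour share their libraries, so these correlations are descriptions. The shallowest tumours, d16 1 and p95 1, had the lowest ratios and the fewest UMIs per cell (medians of 449 and 452), as well as the highest level of the nuclear RNA Neat1 (1355 and 1115 CPM, against 224 to 456 in the others); their part was not tested.

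**Figure D5:**
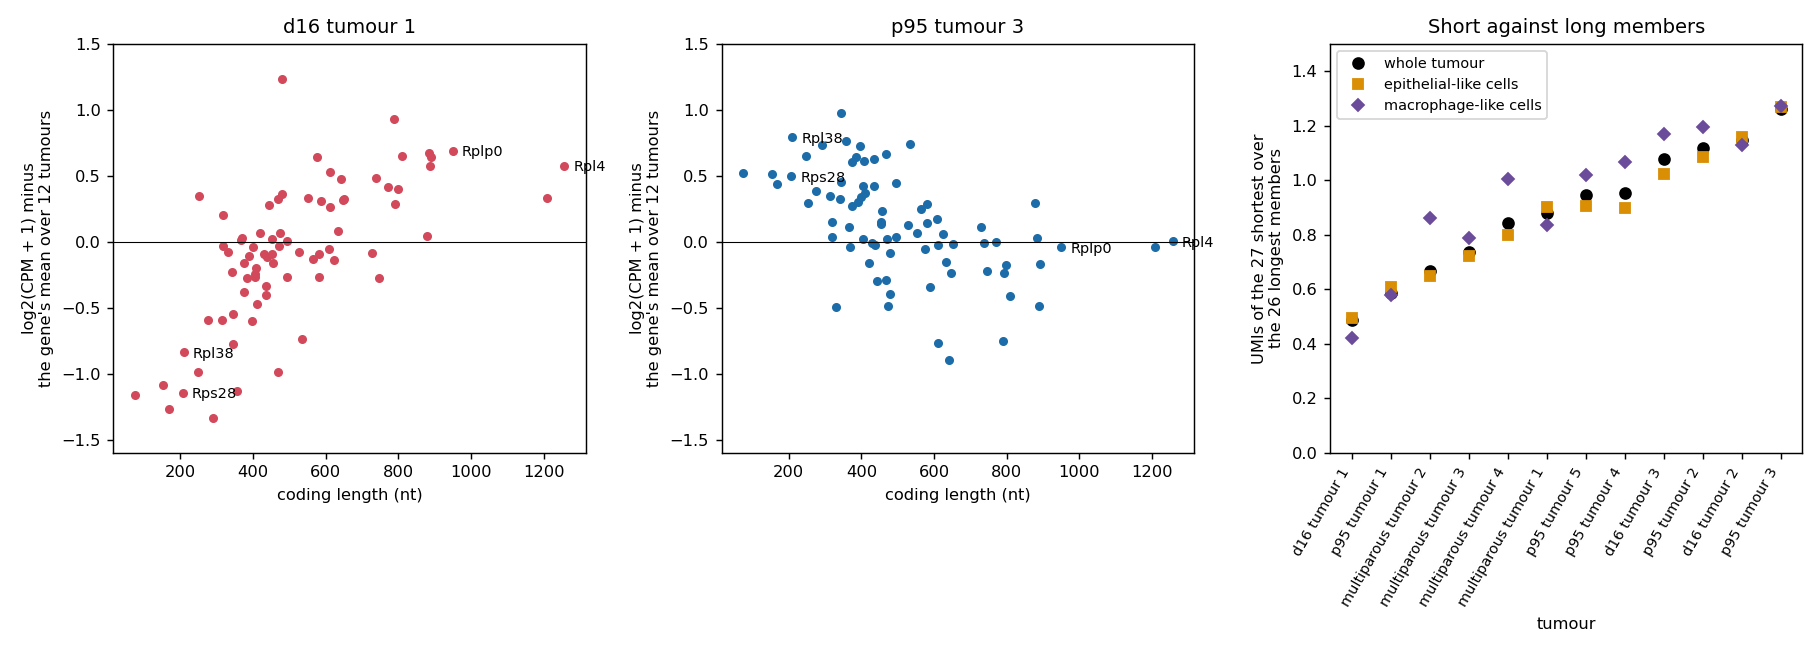
Deviation of each member from its mean over 12 tumours, in log2(CPM + 1), against coding length in nucleotides for d16 tumour 1 (left) and p95 tumour 3 (middle), and the ratio of short to long member UMIs by tumour (right) in whole tumours, epithelial-like and macrophage-like cells. Short members are low and long ones high in d16 tumour 1, the slope is opposite in p95 tumour 3, and the ratio runs from 0.488 to 1.26 in whole tumours.

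The group contrasts carried the same slope, but those by parity and phenotype share tumours and are not independent. All metaplastic tumours are nulliparous, and the solid ones are multiparous tumours 2 and 4 and d16 tumour 1. For parity the median log2 fold change was -0.26 in the 27 short members (8 above 0), -0.05 in the 24 middle ones and 0.11 in the 26 long ones (23 above 0). For solid against metaplastic tumours these medians were -0.33 (4 of 27 above 0), -0.04 and 0.25 (23 of 26 above 0). The ratio of short to long UMIs was 0.782 ± 0.0977 in multiparous and 0.947 ± 0.275 in nulliparous tumours (SD, n = 4 and 8), and 0.666 ± 0.178 in solid and 1.01 ± 0.219 in metaplastic tumours (n = 3 and 7), with overlap in both. Between cell classes the slope was weak, with a rho of 0.25 across members in epithelial-like, 0.11 in T or NK-like, 0.07 in fibroblast-like and -0.09 in neutrophil-like cells.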

How the data were processed

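Values were the deposited, unnormalized UMI counts of each gene in each cell barcode, in 1 table for each of 12 tumours; the authors joined several libraries per tumour, per the labels. Seurat 3.0.2 and GRCm38 are named in the submitters' processing notes; the aligner, annotation, strand setting and calling of cells are not given in the sources used here. Members and gene lists were chosen with earlier results of these data known. Cells with at least 200 genes were kept (7366 of 8486 barcodes), giving 104893 to 4394398 UMIs per tumour; tables shared at most 3 barcodes, and 0 mitochondrial rows were listed. Cells were clustered without members or their copies (scanpy 1.11.5, 2000 variable genes, 30 components, resolution 1, 23 clusters) and named from markers; 289 predicted doublets (3.92%) stayed in. Summed counts were tested with edgeR 4.0.16 (quasi-likelihood, TMM, filterByExpr), p-values adjusted by Benjamini-Hochberg over all genes tested, with tumour as a term between classes and at least 20 cells per tumour and class. Standard errors (SE) were derived from the test, as the absolute log2 change over the square root of its F statistic. DESeq2 1.42.0 and limma 3.58.1 served as alternatives. The edgeR scripts were tested on simulated counts. Named genes were the 8 most abundant members, stalk genes, paralogues with parents, members with roles beyond the ribosome, up to 10 called per direction and fit (or the 5 with the smallest p), and rows with 0 UMIs in a group. Positions and coding lengths came from GENCODE M21 and promoters from RefSeq. Some genes that the rule takes are not reported here.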

Additional observations from a re-analysis of the deposited data

Results flagged for a closer look

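Of 48 groups of values examined for a sample far from the others, 1 stood out, where chance alone gives about 1 in 20. Rpl29 had 42.7 CPM in multiparous tumour 1 and 69.1 to 74.2 CPM in the other 3 multiparous tumours. The gap to the nearest tumour was 0.836 of the group's range, above Dixon's critical value for 4 samples. In the nulliparous tumours Rpl29 ran from 9.53 CPM (1 UMI, in p95 tumour 1) to 112 CPM. The next lowest was 34.8 CPM in d16 tumour 3, so multiparous tumour 1 lies inside the range of all tumours.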

How the results depend on the processing

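Of 198 alternative counts of called members, 183 stayed within 1.5 times the reported count or at 0, 13 were lower and 2 higher; all 59 alternative share differences moved by less than 1 SD, though those by parity, HER2 form and phenotype changed sign in 6, 2 and 1 of the fits without 1 tumour, and of 1431 values of single genes 1332 kept direction and call, 97 lost the call, 2 gained it and 0 reversed. DESeq2 called 3 members for phenotype and 30 in fibroblast-like cells (where it called 43.8% of all genes), 38 were called in T or NK-like cells with no filter on low counts, and for layout 0 were called without the 2 shallowest tumours or with cells of at least 500 genes. Leaving out 1 tumour gave 0 to 1 members for layout, 50 to 54 in epithelial-like, 61 to 66 in T or NK-like, 12 to 20 in fibroblast-like and 20 to 49 in neutrophil-like cells; the causes were not tested. Leaving out tumours between classes was added after the data were seen. RLE scaling moved the median log2 change of all genes from 0.16 to 0.35 in epithelial-like and from 0.09 to -0.07 in T or NK-like cells, with 73 and 63 members called. Apart from the DESeq2 fits, the share of all genes called in these settings is not given here. Without those shares, the counts in these other settings do not show whether the members stand apart from other genes. With the shared title number as a replicate block (2 pairs that share only a number, limma voom), 0 members were called between d16 and p95 tumours and in their epithelial-like cells, as without the block. Depth limits the low members: 3 UMIs equal 28.6 CPM in p95 tumour 1.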

Other observations

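Of 7 processed copies of ribosomal protein genes in the tables, 4 were tested for parity. Rps19-ps3 had 96.3, 76.7, 77.8 and 226 CPM in multiparous tumours 1 to 4 and 8.66 to 47.2 CPM in the 8 nulliparous tumours, without overlap. Its log2 fold change was 2.40 ± 0.40 (edgeR adjusted p = 0.0420), and it was named after its values were seen. The call ended with table layout as a covariate (adjusted p = 0.203) and in 10 of the 12 fits without 1 tumour. Of the 50-base end words of Rps19, 56.6% also occur in other genes, Rps19-ps3 among them. Whether UMIs counted for Rps19-ps3 came from Rps19 was not tested.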
